A study of Mus musculus with 4 samples.

Results

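Transcripts of Polycomb repressive complex 2 (PRC2) were followed through the genes of its core subunits, Ezh1, Ezh2, Eed and Suz12, and of its accessory subunits, Mtf2, Phf1, Phf19, Epop, Jarid2 and Aebp2. These 10 genes were chosen by name, and every probe set whose single symbol in the array annotation was one of them was taken. This gave 31 of the 45037 probe sets that are not manufacturer's controls, and all 10 genes were measured among 18193. They were read on 4 Affymetrix arrays of the mouse embryonic stem cell line E14, 2 from cells given RNA interference against Npac (Npac RNAi) and 2 from cells given a control (control RNAi). All arrays came from cells kept in 15% serum with LIF at 1000 units per ml, transfected, placed under puromycin 24 hours later and collected after 3 days of selection. The labels describe the plasmid only as an Npac short hairpin, on the control samples too, so the groups rest on the sample titles. They name no sequence for the hairpin or for the control. They also do not say that replicates came from separate cultures, so the tests measure the spread between these arrays.

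PRC2 is the enzyme complex that methylates lysine 27 of histone H3, a mark of silenced developmental genes. EZH1 or EZH2 carries the methyltransferase activity, EED and SUZ12 are needed for that activity, and accessory proteins sort the complex into forms that hold MTF2, PHF1 or PHF19 on one side and JARID2 with AEBP2 on the other. In embryonic stem cells the complex covers promoters of lineage regulators, and cells without it can still self-renew but differentiate poorly. Npac, now named Glyr1, is a nucleosome-binding protein that recognises methylated lysine 36 of the same histone tail, a modification known to hinder PRC2.

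Values are RMA values on the log2 scale, and every difference below is Npac RNAi minus control RNAi on that scale. Called means an adjusted p under 0.05 in limma over all 45037 probe sets; for genes other than the 10, and where 1 probe set stands for a gene, it is adjusted over the 18193 genes. Glyr1 itself read 10.23 and 10.20 in Npac RNAi, against 11.30 and 11.32 in control RNAi, or 46.9% of the control level (-1.09, limma adjusted p = 0.00101). Across probe sets the correlation was 0.998 between replicates, and 0.987 to 0.989 for an Npac RNAi array with a control RNAi array. The 24 poly-A spike-in probe sets, which read RNA added before labelling, were 0.54 higher on the Npac RNAi arrays, so scaling on them would lower every difference by 0.54.

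Among the PRC2 genes, only Suz12 was called on every probe set: all 6 fell, to between 60.6% and 77.8% of the control level. Mtf2 fell on 3 of 6 probe sets, Ezh1 rose on 1 of 4 (1.51-fold) and Aebp2 rose on 1 of 5 (1.17-fold). The other 6 genes, Ezh2, Eed, Jarid2, Phf1, Phf19 and Epop, had no probe set past the test at this level. In total 2 of the 31 probe sets were called higher and 9 lower, against 14.2% called higher and 14% called lower among all probe sets (28.2% in either direction). As shares of the 31 these are 6.45% and 29.0%. The median difference over the 31 was -0.16, against -0.06 over all probe sets.

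**Figure D1:**
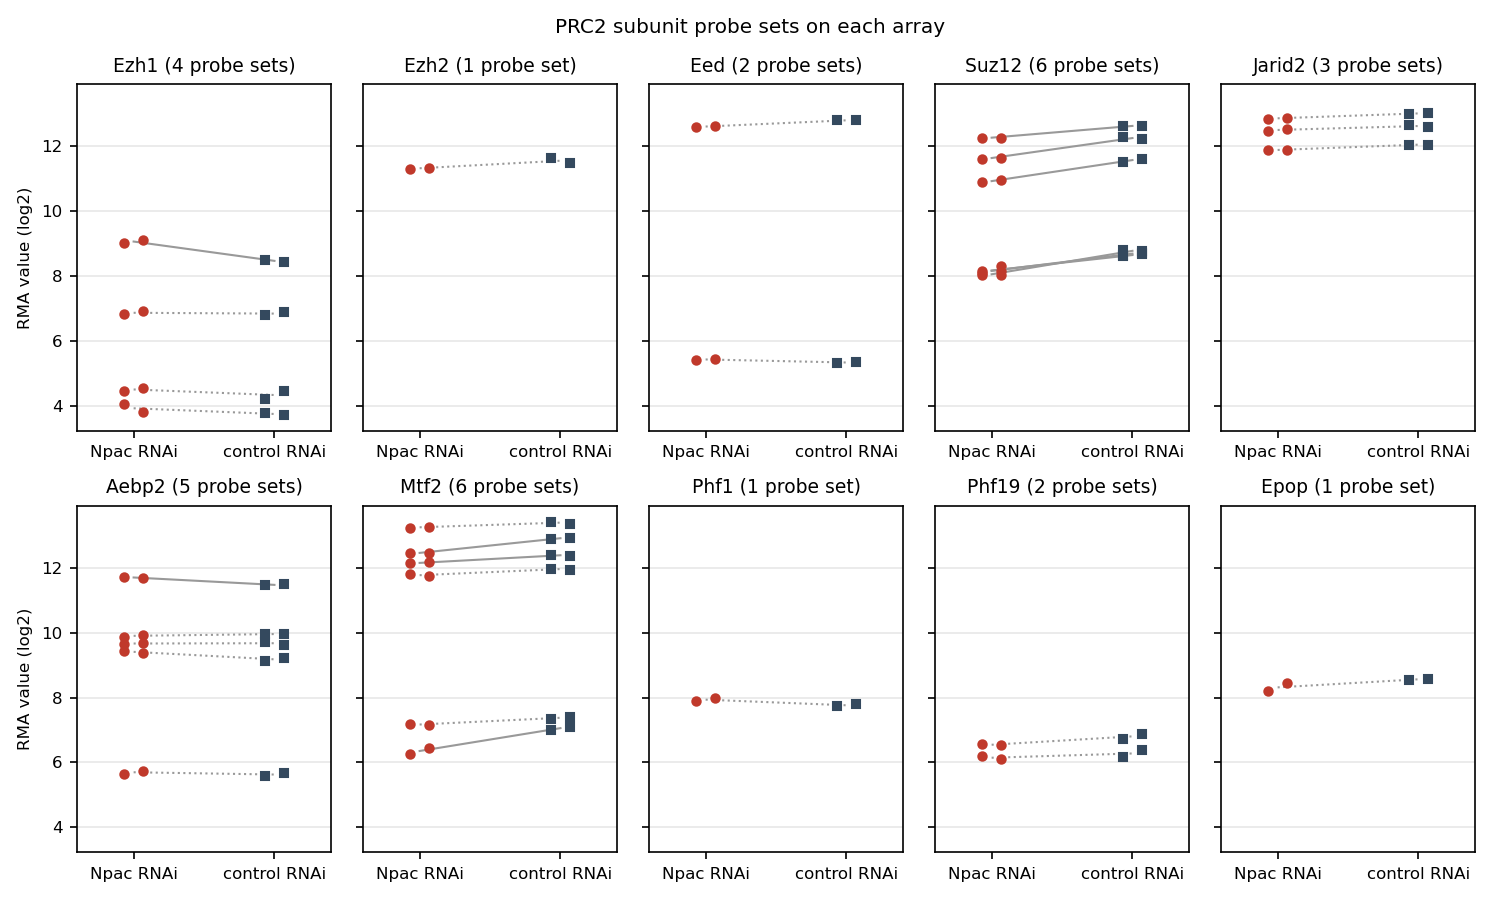
RMA values (log2, vertical axis) of the 31 PRC2 probe sets on each array, with a panel for each gene; red circles are the 2 Npac RNAi arrays, dark squares the 2 control RNAi arrays, and grey lines join group means, solid where the probe set was called. All 6 Suz12 lines slope from lower Npac RNAi values to higher control values, while the brightest Ezh1 line slopes the other way.

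The largest absolute difference among the PRC2 probe sets was 0.72, and 5 of the 31 passed 1.5-fold, each of them called, 1 higher and 4 lower. Of all probe sets 5.85% were called higher and 1.95% lower by at least 1.5-fold. The 4 lower ones belong to Suz12 and Mtf2. Both Npac RNAi arrays lay below both control arrays for 20 of the 31 and above them for 7, while the groups overlapped for 4. Over all probe sets the shares were 41.1% below and 28.0% above. The largest standard deviation (SD) between replicates of any PRC2 probe set was 0.212.

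**Figure D2:**
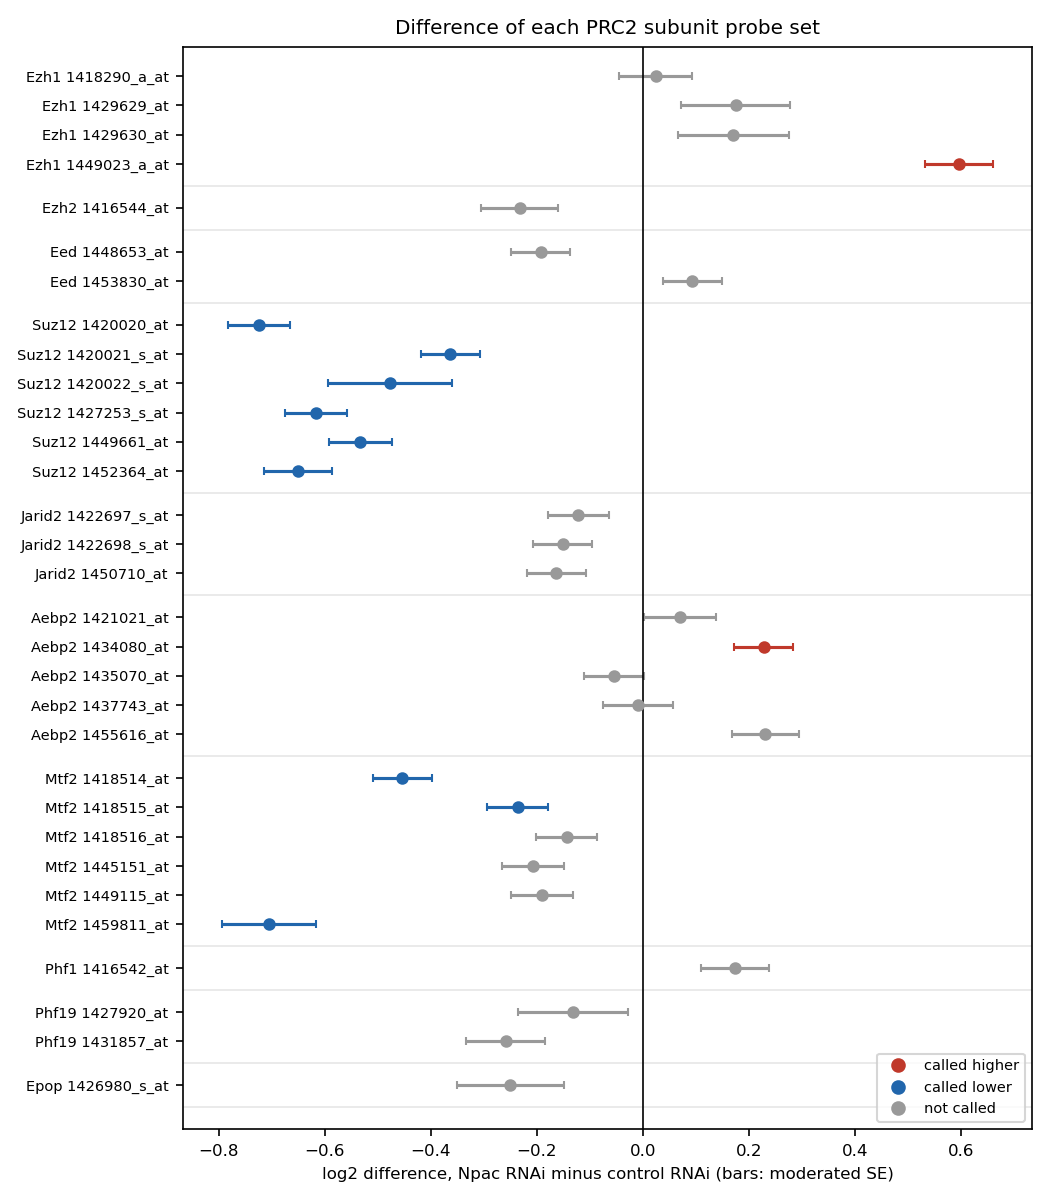
Log2 difference of each PRC2 probe set, Npac RNAi minus control RNAi (horizontal axis), with limma's moderated standard error as bars; red and blue mark probe sets called higher and lower, grey those not called. The 9 blue points belong to Suz12 and Mtf2, the 2 red points to Ezh1 and Aebp2.

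Of the catalytic subunits, Ezh1 had a called rise and Ezh2 had none. Ezh1, which encodes the less active methyltransferase and predominates in non-dividing tissue, read 9.03 and 9.10 in Npac RNAi, against 8.51 and 8.43 in control RNAi, on its brightest probe set, 1449023_a_at. The groups stood apart there, and the difference was 0.60 (SE 0.0648, limma adjusted p = 0.00704, n = 2 per group). The other 3 Ezh1 probe sets were not called, with differences of 0.02, 0.17 and 0.18. Of these, 1429629_at and 1429630_at had means of 3.83 and 4.41, below the lower quartile of all probe sets (4.84), and 1418290_a_at had overlapping groups at a mean of 6.85. The rise of Ezh1 therefore rests on 1 probe set, and averaging all 4 gave 0.24 with a call (limma adjusted p = 0.0207). With spike-in scaling the bright probe set stood at 0.06 without a call, and its call was also lost without Npac RNAi array 2, without control RNAi array 2 and with no moderation.

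Ezh2, the methyltransferase of dividing cells, was read by 1 probe set. It stood at 11.31 and 11.34 in Npac RNAi, against 11.63 and 11.49 in control RNAi. Both Npac RNAi arrays were lower, but the difference of -0.23 (SE 0.0727) missed the threshold (limma adjusted p = 0.0769). The probe set was called lower in 4 of 17 alternatives. These were a mean-variance trend, centring over genes, spike-in scaling and testing only probe sets at or above the median level. The control arrays differed from each other more than the Npac RNAi arrays did, with SDs of 0.023 in Npac RNAi and 0.0997 in control RNAi. Within each array, Ezh1 minus Ezh2 was -2.28 and -2.24 in Npac RNAi, against -3.12 and -3.06 in control RNAi, a shift of 0.83 that no scaling by a constant can alter. Between 2 and 2 arrays an exact two-sided permutation test cannot go below p = 0.333, which is the value it gave. With the mean of the probe sets of each gene the shift was 0.47.

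Suz12 encodes the scaffold subunit that holds the enzyme and the accessory proteins together. Its brightest probe set, 1420021_s_at, read 12.28 and 12.27 in Npac RNAi, against 12.62 and 12.65 in control RNAi, and had the smallest difference of the 6 (-0.36, SE 0.0554, limma adjusted p = 0.0149). On 1420020_at, which differed most, the values were 8.08 and 8.03 in Npac RNAi, against 8.79 and 8.77 in control RNAi (-0.72, SE 0.0585, limma adjusted p = 0.00394). In both cases replicates lay close together and the groups were well apart. The probe set 1427253_s_at gave 11.63 and 11.66 in Npac RNAi, against 12.29 and 12.23 in control RNAi, and 1452364_at gave 10.91 and 10.95 in Npac RNAi, against 11.53 and 11.63 in control RNAi. Their differences were -0.62 and -0.65 (limma adjusted p = 0.00544 and 0.00579). The remaining 2 were 1449661_at at -0.53 (limma adjusted p = 0.00735) and 1420022_s_at at -0.48 (limma adjusted p = 0.0445). The last had the widest replicates, 8.02 and 8.32 in Npac RNAi, against 8.60 and 8.69 in control RNAi. All 6 read the same gene and the same RNA, so they are repeated readings and not independent evidence.

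How firmly Suz12 passed depended on the probe set. In the leave-one-out fits, 1420020_at and 1427253_s_at were called without any 1 of the 4 arrays, 1452364_at in 3 of the 4 fits, 1449661_at in 2, 1420022_s_at in 1 and 1420021_s_at in 0. With no moderation of the variances 4 of the 6 calls were lost, 1427253_s_at among them (limma without moderation, adjusted p = 0.0528), leaving 1420020_at and 1420021_s_at. Every one of the 6 stayed below 0 under the 17 alternatives for probe sets, from -1.26 to -0.33. With 1 value per gene the mean of the probe sets was -0.56 (limma adjusted p = 0.00279).

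Eed, the subunit that reads trimethylated lysine 27 and stimulates the enzyme, read 12.60 and 12.63 in Npac RNAi, against 12.81 and 12.80 in control RNAi, on its bright probe set 1448653_at. The groups did not overlap, and the difference of -0.19 (SE 0.0553) missed the threshold over probe sets (limma adjusted p = 0.0633). The second Eed probe set, 1453830_at, was dim, at 5.41 and 5.44 in Npac RNAi, against 5.32 and 5.34 in control RNAi, and went the other way without a call (0.09, limma adjusted p = 0.261). Neither Eed probe set passed the test over probe sets, and their estimates had opposite signs.

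Mtf2 belongs to the Polycomb-like family, whose members bind DNA rich in unmethylated CG and bring the complex to it, and it is the family member known to be abundant in embryonic stem cells. It fell on 3 of 6 probe sets, and the Npac RNAi arrays were below the control arrays on all 6. The probe set 1418514_at read 12.46 and 12.47 in Npac RNAi, against 12.90 and 12.93 in control RNAi (-0.45, SE 0.0556, limma adjusted p = 0.0092). On 1418515_at the values were 12.14 and 12.17 in Npac RNAi, against 12.41 and 12.37 in control RNAi (-0.24, limma adjusted p = 0.043). The third, 1459811_at, was dimmer and differed most, at 6.26 and 6.44 in Npac RNAi, against 7.01 and 7.10 in control RNAi (-0.71, SE 0.0887, limma adjusted p = 0.00964). The 3 without a call, which include the brightest, 1418516_at, had differences between -0.21 and -0.14. Probe sets of Mtf2 thus disagreed in size, over a range of 0.56, but not in sign. The calls on 1418514_at and 1418515_at were lost in each of the 4 leave-one-out fits, and that on 1459811_at in 2 of them. The call on 1418515_at was also lost with quantile normalization, median centring and cyclic loess.

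The other Polycomb-like genes were dimmer. Phf1, read by 1 probe set, stood at 7.89 and 7.97 in Npac RNAi, against 7.73 and 7.79 in control RNAi, a difference of 0.17 that was not called (limma adjusted p = 0.109). Phf19 had 2 probe sets: 1431857_at read 6.56 and 6.53 in Npac RNAi, against 6.73 and 6.88 in control RNAi (-0.26, limma adjusted p = 0.0645), and the groups overlapped on 1427920_at (-0.13, limma adjusted p = 0.377). Epop, an inhibitor of the complex that links it to elongin, was read by 1 probe set. It stood at 8.19 and 8.44 in Npac RNAi, against 8.54 and 8.59 in control RNAi, and its difference of -0.25 (SE 0.101) came with a wide gap between the Npac RNAi arrays and no call (limma adjusted p = 0.133).

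Jarid2 and Aebp2 encode the partners of the other form of the complex. Jarid2, a DNA-binding protein that helps to recruit PRC2, was bright on all 3 probe sets and differed by -0.16 to -0.12, with the Npac RNAi arrays below the control arrays on each and no call (limma adjusted p from 0.0902 to 0.181). Its brightest probe set, 1422698_s_at, read 12.86 and 12.88 in Npac RNAi, against 13.02 and 13.02 in control RNAi. Aebp2, a zinc finger cofactor that stabilises the complex, read 11.71 and 11.71 in Npac RNAi, against 11.47 and 11.49 in control RNAi, on its brightest probe set, 1434080_at (0.23, SE 0.0553, limma adjusted p = 0.043). A second Aebp2 probe set, 1455616_at, gave the same size without a call (0.23, limma adjusted p = 0.0563), while the other 3 lay between -0.05 and 0.07. The Aebp2 call was lost in each of the 4 leave-one-out fits, with quantile normalization (0.20) and with centring over genes (0.09), and with spike-in scaling the probe set was called lower (-0.31).

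Taking 1 probe set per gene, the one with the highest mean over the 4 arrays, gave 2 PRC2 genes higher and 3 lower of 10. Over all genes 22.1% were called higher and 18.7% lower (40.8% in either direction). Ezh1 and Aebp2 were the higher ones. Suz12, Eed (limma adjusted p = 0.0339 over genes) and Phf19 (limma adjusted p = 0.0457 over genes) were the lower ones, and Mtf2, represented by its brightest probe set, was not called (-0.14), although the mean of its probe sets was (-0.32, limma adjusted p = 0.0092). Eed lost its call in each of the 4 leave-one-out fits and with the mean of its probe sets (-0.05), and Phf19 in 3 of the 4 and with the mean (-0.20). The median over the 10 genes was -0.17, against -0.04 over all genes. Without 1 array in turn, 1 PRC2 gene was called higher, and 0 to 2 lower, with 0 without control RNAi array 2, 1 without Npac RNAi array 1 and 2 without either of the others.

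Promoter sequence is shown for Suz12, which fell on every probe set, for Ezh2 and Phf19, whose windows also hold a form of the motif searched, and for Ezh1, which rose on its brightest probe set. The windows are RefSeq's on GRCm38.p6, from 250 bases before to 50 after an annotated start, and 9 of the 10 genes (Epop is the exception) had 1 or more, 13 windows in all. They were searched on both strands for the E2F forms TTTCCCGC, TTTCGCGC, TTTGCCGC and TTTGGCGC, since Ezh2 and Eed are textbook targets of the E2F factors that drive replication genes. Matches are in capitals.
Suz12, chr11:79992856-79993155, plus strand: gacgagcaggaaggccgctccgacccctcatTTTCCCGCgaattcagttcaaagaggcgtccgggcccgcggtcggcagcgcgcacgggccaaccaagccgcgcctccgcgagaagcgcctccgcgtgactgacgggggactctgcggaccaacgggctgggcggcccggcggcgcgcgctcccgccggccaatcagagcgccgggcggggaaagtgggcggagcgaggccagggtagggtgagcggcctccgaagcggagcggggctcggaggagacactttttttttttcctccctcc
Ezh2, chr6:47594981-47595280, minus strand: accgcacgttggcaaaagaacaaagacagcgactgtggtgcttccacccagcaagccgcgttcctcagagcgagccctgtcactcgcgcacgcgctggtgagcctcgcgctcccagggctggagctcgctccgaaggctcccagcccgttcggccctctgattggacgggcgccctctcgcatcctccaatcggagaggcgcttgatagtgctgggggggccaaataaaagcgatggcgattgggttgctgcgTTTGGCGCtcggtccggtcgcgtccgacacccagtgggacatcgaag
Phf19, chr2:34913927-34914226, minus strand: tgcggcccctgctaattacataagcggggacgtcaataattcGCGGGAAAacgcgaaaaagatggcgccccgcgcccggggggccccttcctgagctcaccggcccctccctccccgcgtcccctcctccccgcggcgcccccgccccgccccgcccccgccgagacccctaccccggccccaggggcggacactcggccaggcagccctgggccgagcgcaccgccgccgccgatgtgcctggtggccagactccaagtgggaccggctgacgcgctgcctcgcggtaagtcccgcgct
Ezh1, chr11:101226414-101226713, minus strand: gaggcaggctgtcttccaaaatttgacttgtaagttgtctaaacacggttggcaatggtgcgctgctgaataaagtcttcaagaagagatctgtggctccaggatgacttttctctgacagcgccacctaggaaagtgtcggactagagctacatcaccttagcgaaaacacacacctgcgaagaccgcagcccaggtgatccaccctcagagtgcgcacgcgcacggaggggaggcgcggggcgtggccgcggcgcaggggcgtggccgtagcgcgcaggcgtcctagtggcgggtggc

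Counting from 1 at the window's 5′ end, a match was present in 3 of the 9 genes: TTTCCCGC at bases 32 to 39 of the Suz12 window, TTTGGCGC at bases 254 to 261 of the Ezh2 window, and TTTCCCGC on the opposite strand at bases 43 to 50 of the Phf19 window, where it reads GCGGGAAA. Of all 32851 windows 2.26% held a match, and of 27025 genes 2.6%. Among the replication and mitosis genes listed below, 8 of the 21 with a window held one. The windows of Eed, Mtf2, Jarid2, Aebp2, Phf1 and Ezh1 held none of these letters. A match describes the sequence and is not a binding site.

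Of 25 measured genes of replication and mitosis, listed because E2F factors drive many of them, 21 fell and 0 rose, with a median difference of -0.42, against -0.04 over all genes (18.7% of them called lower), and their summed signal was 82777 and 83225 in Npac RNAi, against 108134 and 104709 in control RNAi. Top2a, a DNA topoisomerase, read 12.26 and 12.27 in Npac RNAi, against 12.95 and 12.92 in control RNAi (-0.67, limma adjusted p = 0.00223). The replicative helicase gene Mcm2 read 11.31 and 11.39 in Npac RNAi, against 11.99 and 12.00 in control RNAi (-0.65, limma adjusted p = 0.00317). Whether the lower Suz12 and Mtf2 values go with fewer dividing cells was not tested, and in such bulk RNA fewer cells of a kind and less RNA per cell cannot be told apart.

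Of 7 genes of proteins that work with PRC2 but are not among the 10, 4 rose and 0 fell (median 0.17). Of all genes 22.1% were called higher and 18.7% lower. With spike-in scaling 1 of the 7 was called higher and 4 lower, beside 3.34% of all probe sets higher and 84.9% lower. Lcor, whose locus encodes the PALI1 cofactor as well as a nuclear receptor corepressor, rose most, at 10.02 and 10.01 in Npac RNAi, against 9.28 and 9.15 in control RNAi (0.80, SE 0.0638, limma adjusted p = 0.00296 over genes). Rbbp7, a histone-binding core component also found in other chromatin complexes, read 13.93 and 13.91 in Npac RNAi, against 13.37 and 13.37 in control RNAi (0.55, SE 0.0458, limma adjusted p = 0.00324 over genes). In both genes the groups did not overlap, although Rbbp7 was at 0.01 and uncalled with spike-in scaling. Lcorl rose by 0.51 (limma adjusted p = 0.0196) and Elob, an elongin subunit bound by EPOP, by 0.17 (limma adjusted p = 0.0448). Lcorl kept its call in 1 of the 4 leave-one-out fits and lost it with no moderation and with spike-in scaling (-0.028), and Elob lost its call in each of the 4.

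The remaining partners had no call. Rbbp4, the paralogue of Rbbp7, read 13.59 and 13.62 in Npac RNAi, against 13.59 and 13.63 in control RNAi, with overlapping groups. That probe set is of a type that may bind related transcripts, and without such probe sets Rbbp4 was called lower (-0.26), so its value is uncertain. Eloc (-0.05, limma adjusted p = 0.56) and Ezhip, the gene of a PRC2 inhibitor (0.17, limma adjusted p = 0.135), did not pass. Of the enzymes that remove the mark, Kdm6b rose, at 10.15 and 10.11 in Npac RNAi, against 9.75 and 9.73 in control RNAi (0.39, SE 0.0468, limma adjusted p = 0.00681), but was 0.07 and uncalled when its probe sets were averaged and -0.15 with spike-in scaling. Kdm6a had overlapping groups (0.05, limma adjusted p = 0.646), and Uty, its dim and closely related Y-linked paralogue, was called higher (0.38, limma adjusted p = 0.0443) at a mean of 5.35. The Uty call was lost in 3 of the 4 leave-one-out fits (0.25 without Npac RNAi array 2), in 11 of 19 alternatives in all, and the value is also uncertain where the 2 transcripts share sequence.

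**Figure D3:**
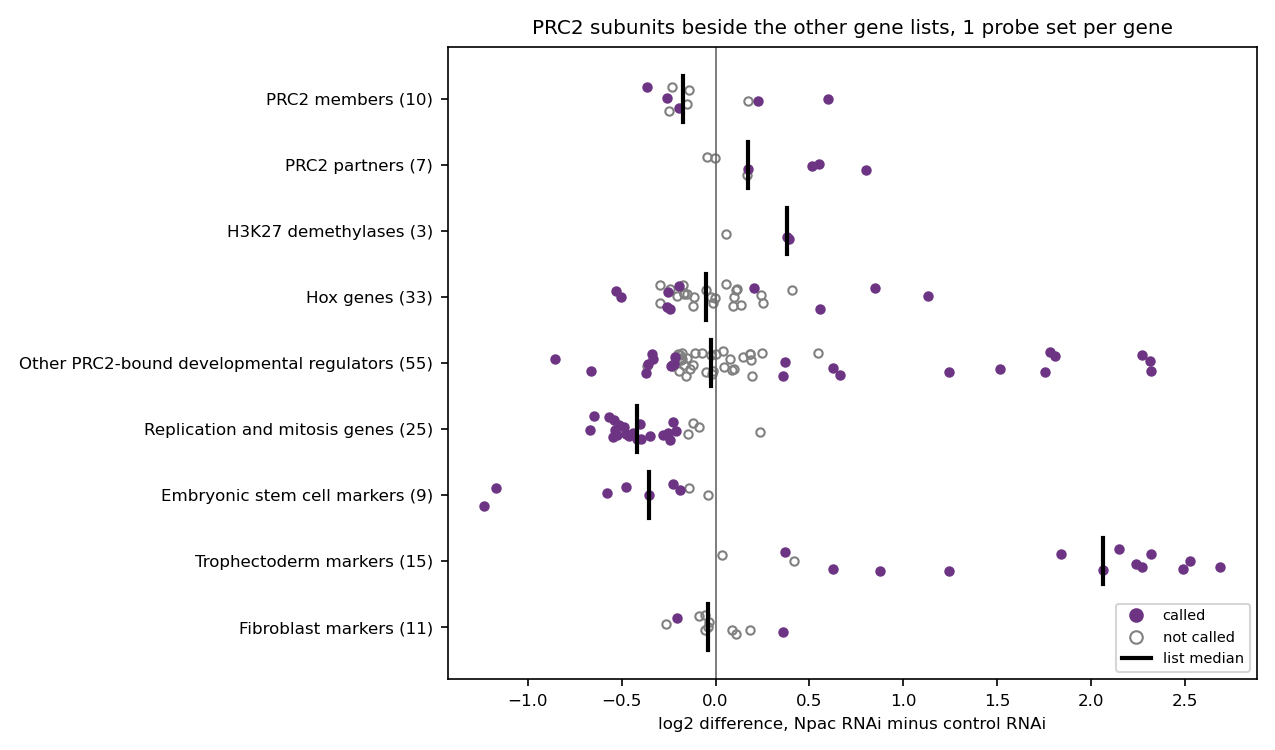
Log2 difference, Npac RNAi minus control RNAi (horizontal axis), of each gene in 9 lists with 1 probe set per gene; filled points were called, open points were not, black bars are list medians and the number measured is in brackets. The 10 PRC2 genes lie between -0.36 and 0.60, and the replication and mitosis genes lie mostly below 0.

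Among genes known to be bound by PRC2 in embryonic stem cells, the shares called were near or below those over all genes (22.1% higher and 18.7% lower). Of 33 measured Hox genes, which pattern the body axis, 4 rose (12.1%) and 6 fell (18.2%), with a median of -0.05. The falls numbered 13 after centring over genes, 2 after cyclic loess and 28 with spike-in scaling. In the same order, those scalings called 36.5%, 11.0% and 84.9% of all probe sets lower. The largest rises were Hoxb13, at 7.20 and 6.99 in Npac RNAi, against 5.86 and 6.06 in control RNAi (1.13, limma adjusted p = 0.00441), and Hoxc13 (0.85, limma adjusted p = 0.00238). Hoxa9 (-0.53, limma adjusted p = 0.0389) and Hoxd1 (-0.50, limma adjusted p = 0.019) fell most. Hox probe sets were dim, with a median level of 5.76, and fits without 1 array called 0 or 1 Hox genes lower and 3 higher.

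Of 55 other measured developmental regulators, 12 rose (21.8%) and 9 fell (16.4%), with a median of -0.02. With spike-in scaling 40 of the 55 were called lower, beside 84.9% of all probe sets. Gata3, a transcription factor of trophoblast and T cells, read 10.53 and 10.57 in Npac RNAi, against 8.23 and 8.24 in control RNAi (2.32, limma adjusted p = 0.000704). Irx3, a homeobox gene, read 9.39 and 9.53 in Npac RNAi, against 7.22 and 7.07 in control RNAi (2.31, limma adjusted p = 0.000807). The neural regulators Lmx1a (-0.85, limma adjusted p = 0.00225) and Olig1 (-0.66, limma adjusted p = 0.0117) fell. Members of this list that also mark trophectoderm numbered 5, and all 5 rose, leaving 7 rises outside that overlap.

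Marker genes of embryonic stem cells and of trophectoderm also differed between the groups, and their counts stand beside the 22.1% of all genes called higher and 18.7% called lower. Of 9 embryonic stem cell markers 7 fell and 0 rose (median -0.36), and their summed signal on the linear scale was 62011 and 62741 in Npac RNAi, against 80319 and 80080 in control RNAi. Pou5f1 read 11.91 and 11.88 in Npac RNAi, against 13.03 and 13.08 in control RNAi (-1.17, limma adjusted p = 0.00101). Nanog differed by -0.48 (limma adjusted p = 0.00562) and Sox2 by -0.14 without a call (limma adjusted p = 0.105). Of 15 trophectoderm markers 13 rose and 0 fell (median 2.06), and their summed signal on the linear scale was 47409 and 47834 in Npac RNAi, against 11324 and 11496 in control RNAi. Of 11 fibroblast markers 1 rose and 1 fell (9.09% each, below the shares over all genes), and their summed signal was 597 and 570 in Npac RNAi, against 588 and 529 in control RNAi. The lowest value of any probe set was 2.78, so a marker's value above 0 does not show that its transcript was detected. The part of these marker differences in the PRC2 values was not tested.

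**Figure D4:**
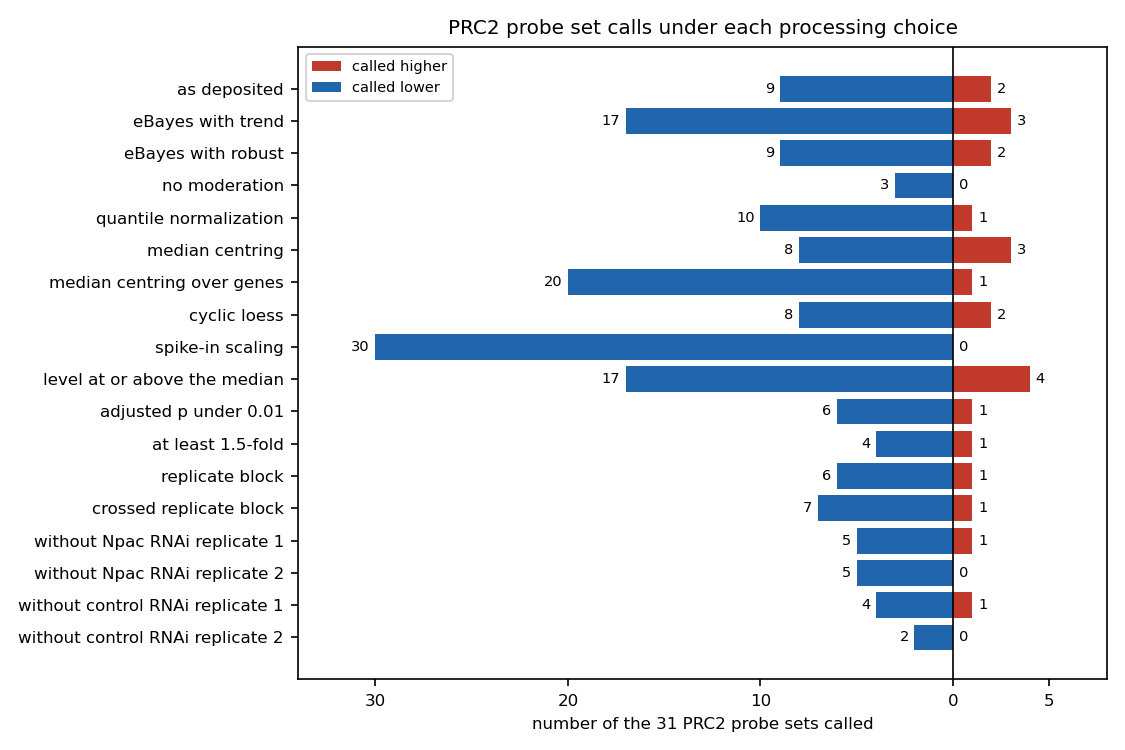
Number of the 31 PRC2 probe sets called higher (red, right of 0) and lower (blue, left of 0) on the deposited values and under each of 17 alternatives (vertical axis); the fit at or above the median level tested 26 of the 31. Lower calls outnumber higher ones in each row, up to 30 lower with spike-in scaling, where 84.9% of all probe sets were called lower. After centring over genes 20 were lower, beside 36.5% of all probe sets. The bars do not show these shares, which differ between rows. The 9 lower calls on the deposited values come from Suz12 and Mtf2 only.

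The balance of calls depended on the scale. On the deposited values 9 of the 31 were lower, and 20 were lower after centring each array on its median over genes, which shifts every difference by -0.14 and leaves 36.5% of all probe sets lower. With spike-in scaling 30 were lower, beside 84.9% of all probe sets. All 6 Suz12 probe sets were called lower in each of these. The rise of Ezh1 was called after centring over genes (higher by 0.46) but not with spike-in scaling, and that of Aebp2 in neither.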

How the data were processed

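Per the labels, single-channel Affymetrix arrays were hybridised with biotin-labelled RNA made from 5 µg of total RNA. The authors' deposited log2 values were made with RMA, per the submitters' processing notes, with no version given; the log base was inferred from the values (2.78 to 15.05 outside controls). RMA as usually run brings arrays to a common distribution, so a shift of all transcripts might not show; small differences remained here (array medians 6.41 to 6.44). Software and detection calls are not given in the sources used; the number of arrays limits precision.

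Groups came from sample titles. Symbols were updated by Entrez identifier (34741 of 34945 single-symbol probe sets). The 45037 probe sets, and separately 18193 genes, were fitted with limma 3.58.1 in R 4.3.3 (lmFit, eBayes, group only; Benjamini-Hochberg, threshold 0.05). The fit over probe sets had 2 residual and 2.56 prior degrees of freedom. The procedure was tested on simulated data. The PRC2 members, gene lists and tests were chosen with earlier results of these data known. Named genes were the members, Glyr1, all partners and demethylases, Pou5f1, Nanog and Sox2, and up to 2 higher and 2 lower called genes with the largest differences of the Hox, developmental and replication lists. Same-numbered replicates deviated with a correlation of -0.145, so numbers were not taken as pairs. Alternatives covered moderation, normalization, filters, thresholds, blocks, choice of probe set and each array left out; centring over genes and a crossed block were added after the values were seen.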

Additional observations from a re-analysis of the deposited data

Results flagged for a closer look

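The poly-A spike-ins, which enter the comparison of the PRC2 genes only as an alternative scale, gave higher values in Npac RNAi than in control RNAi for all 24 of their probe sets, by 0.54 on the log2 scale. These probe sets read only a few added transcripts. With 2 arrays in each group, outlying arrays could not be looked for.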

How the results depend on the processing

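On the deposited values 12705 of all probe sets were called, with 2 PRC2 probe sets higher and 9 lower, and 7425 genes, with 2 PRC2 genes higher and 3 lower. Fits without 1 array called 2060 to 4237 probe sets, with 0 to 1 PRC2 probe sets higher and 2 to 5 lower, and 3088 to 4731 genes, with 1 PRC2 gene higher, 0 to 2 lower and 2 to 3 partners higher; the median of the partners was 0.16 to 0.25. With spike-in scaling 39746 probe sets were called (0 PRC2 higher, 30 lower) and 15801 genes (0 PRC2 higher, 9 lower; partners 1 higher and 4 lower, median -0.37), and after centring over genes, chosen after the data were seen, 21102 probe sets (1 higher, 20 lower), with 1 PRC2 gene higher, 7 lower and a partner median of 0.03. Of all calls 50.2% were higher on the deposited values, 22.1% after that centring and 3.79% with spike-in scaling.

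The replicate number as a block, which the arrays do not bear out as pairs (correlation -0.145), gave 4887 probe sets (PRC2 1 higher, 6 lower) and 4375 genes (PRC2 1 higher, 1 lower; 2 partners higher). A crossed block, chosen after the data were seen, called 9500 probe sets (PRC2 1 higher, 7 lower) and 7033 genes (PRC2 2 higher, 1 lower). Among the calls lost under the replicate block were Suz12 1420021_s_at and 1420022_s_at, Mtf2 1418515_at, Aebp2 1434080_at, Lcorl and Uty. No moderation gave 1893 probe sets (0 higher, 3 lower) and 2551 genes (1 higher, 2 lower; 2 partners higher). A mean-variance trend called 18.4% of all probe sets higher and 17.1% lower, with 3 PRC2 probe sets higher and 17 lower. It called 8499 genes, with 6 PRC2 genes lower. Quantile normalization called 13.0% of all probe sets higher and 14.6% lower, with 1 PRC2 probe set higher and 10 lower. Testing only features at or above the median level gave 4 PRC2 probe sets higher and 17 lower of 26, and 6 PRC2 genes lower. Of the 22519 probe sets in that fit 31.6% were called higher and 25.3% lower, and 6240 genes were called. That fit left no fibroblast marker to test. An adjusted p under 0.01 gave 3737 probe sets (PRC2 1 higher, 6 lower), with 5.70% of all probe sets higher and 2.60% lower. It gave 3129 genes (PRC2 1 higher, 1 lower, and 2 partners higher). A 1.5-fold minimum gave 3511 probe sets (PRC2 1 higher, 4 lower) and 1842 genes (PRC2 1 higher, 0 lower, and 1 partner higher). The mean of probe sets called 6779 genes, with 1 PRC2 gene higher (Ezh1), Suz12 and Mtf2 lower, and 1 partner lower. The widest-ranging probe set called 8864 genes, with 2 partners lower. Leaving out probe sets that may bind related transcripts called 7450 genes, with 1 partner lower. The Ezh1 minus Ezh2 shift was 0.74 with quantile normalization, 0.78 with cyclic loess and 0.47 with means.

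Signs turned with spike-in scaling for Ezh1 1418290_a_at (-0.52), 1429629_at (-0.36) and 1429630_at (-0.37), Eed 1453830_at (-0.45), Aebp2 1421021_at (-0.47), 1434080_at (-0.31) and 1455616_at (-0.31), Phf1 (-0.37), Elob (-0.37), Lcorl (-0.028), Ezhip (-0.37), Kdm6a (-0.49), Kdm6b (-0.15) and Uty (-0.16). With centring over genes they turned for Ezh1 1418290_a_at (-0.12), Eed 1453830_at (-0.047), Aebp2 1421021_at (-0.070) and Kdm6a (-0.085). Further turns were seen for Ezh1 1418290_a_at with quantile normalization (-0.013), Aebp2 1437743_at with median centring (0.0091), Rbbp4 with quantile normalization (0.011), median centring (0.016) and loess (0.054), and Kdm6a on its widest-ranging probe set (-0.13). Without 1 array, values lay on both sides of 0 for Ezh1 1418290_a_at (-0.022 to 0.071), Aebp2 1437743_at (-0.061 to 0.043), Rbbp4 (-0.019 to 0.015), Eloc (-0.097 to 0.0027) and Kdm6a (-0.041 to 0.15). The causes were not tested, apart from the constant shift of both scalings.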
